A study of Drosophila melanogaster with 2 samples.

Results

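HmgZ, HmgD, Dsp1 and Ssrp are 4 genes for HMG-box chromatin proteins, out of 13968 protein-coding genes on the main chromosomes of Drosophila melanogaster. They were picked by name, with the peak lists and the strong peak at HmgZ and HmgD already known. The values are therefore given as a description, and no test was run on any of the 4 genes. Binding of the transcription factor dimm was mapped by chromatin immunoprecipitation and sequencing (ChIP-seq) in whole embryos aged 0 to 24 hours. The embryos came from the strain dimm-GFP, whose insertion targets dimm, so that the fly makes a dimm-eGFP fusion protein that an antibody to GFP can pull down. The series holds 1 group with 2 biological replicates, and no control library was used here. Whole embryos mix every tissue, so a peak does not say in which cells the factor was bound, and the lists hold no measure of how many cells carried the fusion protein.

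HMG-box proteins carry a DNA-binding fold that sits in the minor groove and bends the helix. HmgD and HmgZ are abundant proteins of this kind that bind chromatin with little regard to sequence, and both are present in the embryo. Dsp1 is related to the vertebrate HMGB proteins and is known as a co-repressor that works with the NF-κB factor Dorsal and as a DNA-binding partner of Polycomb group proteins. Ssrp is a subunit of FACT, the histone chaperone that takes nucleosomes apart and puts them back as a polymerase passes, together with the Spt16 protein that dre4 encodes. Dimm itself is known for driving the secretory program of peptidergic neuroendocrine cells, and basic helix-loop-helix factors as a class bind the E-box, CANNTG.

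Of the 4 genes, HmgZ and HmgD held binding regions and Dsp1 and Ssrp held none. A gene was counted when the summit of a region, its point of highest signal, lay in the annotated span or within 1 kb upstream. The main list was the one marked conservative, which compares replicate 1 with replicate 2 and holds 1739 merged regions. In that list 11.2% of all protein-coding genes had a summit. Replicate 1's own list and replicate 2's own list each gave the same 2 genes, against 8.21% and 7.8% of all genes. The list of both replicates not marked conservative also gave HmgZ and HmgD, against 11.6% of genes. HmgZ and HmgD each held 2 summits in the conservative list, which was true of 1.62% of genes. These were the same 2 regions counted for both genes, and each replicate's own list held only 1 of them. Long genes held summits more often: of the 3492 genes with a span of 5 kb or more, a class that takes in HmgZ, HmgD and Dsp1, 23.1% had one. Because the members were chosen with these lists known, nothing is read from their count against these shares.

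HmgZ and HmgD are a pair of overlapping genes on opposite strands of chromosome 2R (genome build dm6). HmgZ (FBgn0010228) runs on the minus strand from 21697488 to 21707861, a span of 10374 bp. HmgD (FBgn0004362) runs on the plus strand from 21701458 to 21716727, a span of 15270 bp. The spans share 6404 bp, 61.7% of HmgZ and 41.9% of HmgD, so each region in the shared stretch counts for both genes. The overlap comes from 1 long transcript of HmgD, HmgD-RD, whose transcription start site (TSS) lies 11898 bp before the next TSS of the gene. HmgZ has 4 annotated transcripts with 3 TSSs, at 21702830 for HmgZ-RA and HmgZ-RC, 21704501 for HmgZ-RB and 21707861 for HmgZ-RD. HmgD also has 4 transcripts with 3 TSSs, at 21701458 for HmgD-RD, 21713356 for HmgD-RA and HmgD-RC, and 21714136 for HmgD-RB. Counting a region for more than 1 gene is common in this compact genome: 414 of the 1739 conservative regions, 23.8%, lay in the windows of at least 2 protein-coding genes.

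The strong region of the pair spanned 21703264 to 21703534 on 2R in the conservative list, 271 bp, with its summit at 21703388. Its signal, the authors' own value per peak whose normalization is not stated, was 601 and ranked 14 of 1739. Ranks and signals are read within a list. In replicate 1's own list the region ran from 21703290 to 21703496 with a signal of 301, rank 15 of 1176. In replicate 2's own list it ran from 21703305 to 21703489 with a signal of 287, rank 17 of 1114. The mean of these signals was 294.2 ± 10.3 (SD, n = 2), but since the scale of each list is not stated, their closeness is not read as agreement. The summits, at 21703382 and 21703389, were 7 bp apart. The region was also narrow. Most conservative regions had the most common width, 304 bp, and 11.4% were narrower than that. The lists give a −log10 of the irreproducible discovery rate (IDR), which scores how well the rank of a candidate agrees between 2 sets of peaks. For the strong region it was 5, the highest value in the longer ranked list that the conservative regions were drawn from, here the main ranked list, where 90 of 139701 candidates reached it.

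The strong summit lay inside an intron of HmgZ and inside an intron of HmgD, between the start sites of the pair. It was 558 bp upstream of the shared TSS of HmgZ-RA and HmgZ-RC. It was also 1113 bp downstream of the TSS of HmgZ-RB and 4473 bp downstream of that of HmgZ-RD, the transcripts that start farther out. From HmgD-RD the summit was 1930 bp downstream. From the other HmgD transcripts it was far away, 9968 bp upstream of HmgD-RA and HmgD-RC and 10748 bp upstream of HmgD-RB. The region was thus within HmgZ-RB and HmgZ-RD, upstream of HmgZ-RA and HmgZ-RC, and inside HmgD only through HmgD-RD. Without HmgD-RD, a setting chosen after seeing the data, HmgZ alone was left with a summit.

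**Figure D1:**
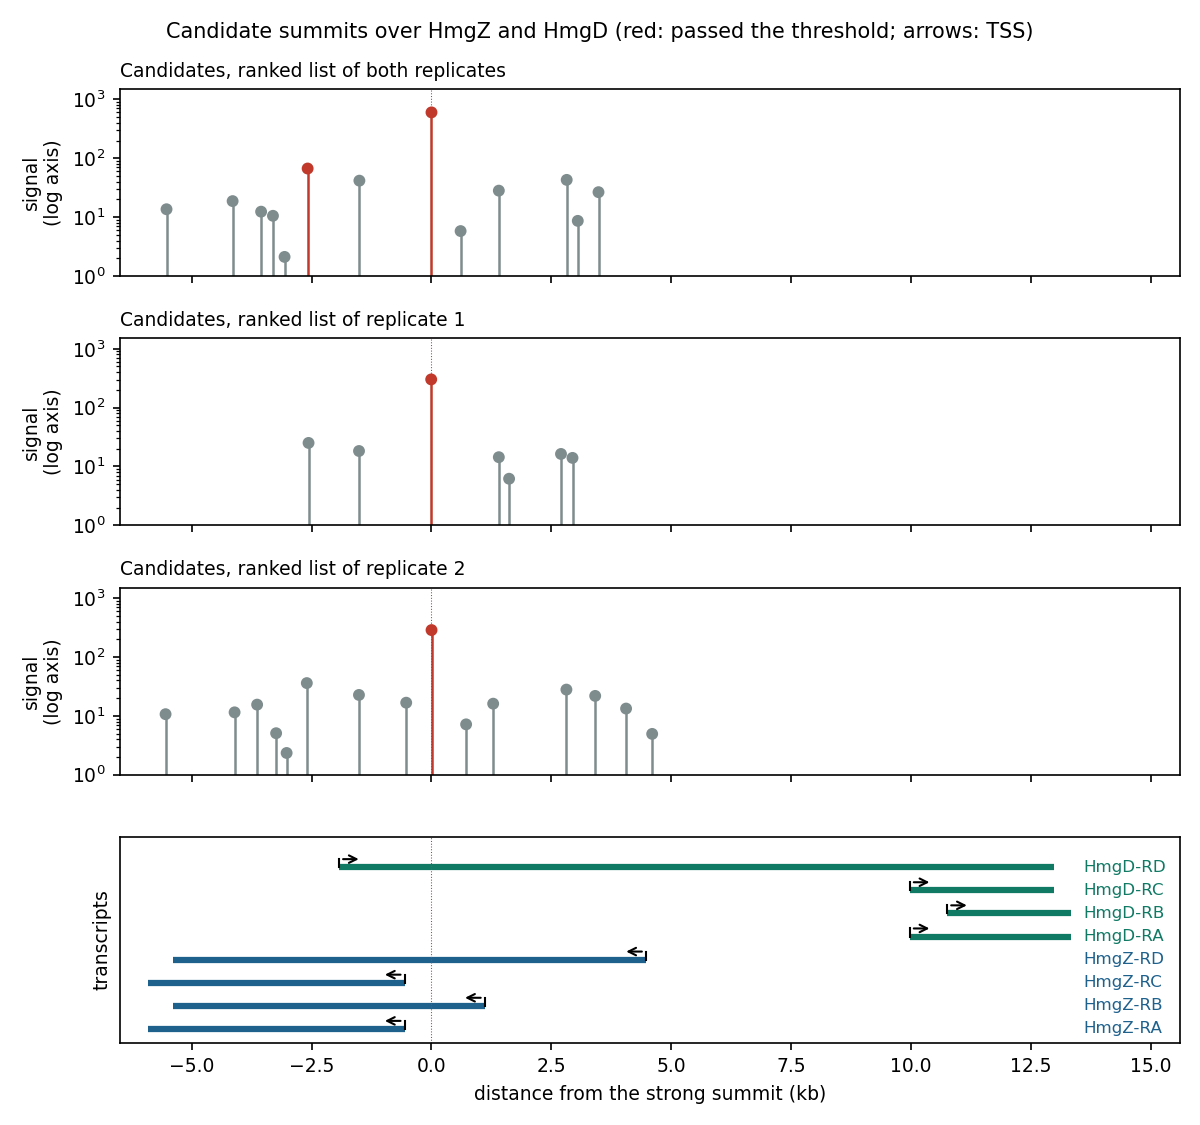
Candidate summits over HmgZ and HmgD in the ranked list of both replicates (top), of replicate 1 and of replicate 2, with the transcripts of both genes below; the vertical axes are the authors' signal (log axis) and the horizontal axis is the distance in kb from the strong summit. Each stick is 1 candidate and red marks those that passed the threshold: the strong region stands alone at 601, 301 and 287, and the far end of HmgD has no candidate in any of the 3 lists.

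The weak region of the pair lay at 21700654 to 21700957, with its summit at 21700806, 2582 bp from the strong one. Its signal of 66.9 ranked 1348 of 1739, so that the strong region was 8.99 times as high. The weak summit was in an intron of HmgZ, 2024 bp downstream of the TSS of HmgZ-RA and HmgZ-RC, and 652 bp upstream of the TSS of HmgD-RD. It is the summit that lies before HmgD, while the strong summit lies inside it. The weak region passed in both lists that use the 2 replicates together, with a −log10 IDR of 2.12 in the main ranked list and 2.11 in the other, beside the minimum of 2. Its candidate had a signal of 25.1 and a −log10 IDR of 0.735 in replicate 1, and a signal of 36.1 and a −log10 IDR of 1.73 in replicate 2. Neither replicate's own list holds it.

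Candidates that did not pass were scattered over the HmgZ end of the locus. The main ranked list held 13 candidates in the window of HmgZ and 8 in that of HmgD. In replicate 1 they numbered 7 for each gene, and in replicate 2 they numbered 15 and 10. These counts include the candidates that passed, and each candidate of HmgD was also in the window of HmgZ. The next candidates below the threshold, both well short of it, were at 21701885, with a signal of 41.6 and a −log10 IDR of 0.964, and at 21706207, with a signal of 42.9 and a −log10 IDR of 0.773. In replicate 1 a pair of candidates at 21706088 and 21706328 came close to the minimum, both at a −log10 IDR of 1.72, with signals of 16.33 and 13.99. In replicate 2 the candidate at 21706201 had a signal of 28.0 and a −log10 IDR of 0.0649. The strong region stood well apart from all of these, 11.99 times as high as the next candidate in replicate 1 and 7.96 times in replicate 2.

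The far end of HmgD, where its other 3 transcripts begin, was empty. After its last candidate, 9706 bp of HmgD (63.6% of the span) held no candidate in the main ranked list. The candidate-free interval ran from 21707022 to 21727203, 20.2 kb, and was the 276th longest of 115171 such intervals, whose median was 422 bp. It was picked because it covers this empty end, so it had to exceed that median and nothing is read from its rank. It measured 19.3 kb in the other ranked list of both replicates, 19.9 kb in replicate 1 and 20.1 kb in replicate 2, so the emptiness hardly changed between lists. The stretch that all 4 ranked lists share was 18.2 kb, with 0 unknown bases and 0 bases of annotated transposable elements. It covers the TSSs of HmgD-RA, HmgD-RC and HmgD-RB. The shared stretch also holds the start sites of CG30403, CG30398, Tango11 and LBR, the last of which encodes the lamin B receptor. The longer interval of the main ranked list takes in the TSS of HmgZ-RD as well, at 21707861.

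Dsp1 (FBgn0278608) is on the plus strand of chromosome X, from 16333612 to 16340624, a span of 7013 bp with 7 transcripts and 2 TSSs, at 16333612 and 16336184. Its window held 0 candidates in the main ranked list, 0 in the other ranked list of both replicates, 0 in replicate 1 and 0 in replicate 2. Here 15.4% of protein-coding genes had no candidate in the first of these lists, 9.34% of genes with a span of 5 kb or more had none there, and 7.82% of all genes had none in any of the 4. Dsp1 is among these genes in each list, and since its candidates belonged to the rule that chose it, no more is read from the shares.

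The interval around Dsp1 without a candidate is given as a description. In the main ranked list it ran from 16324654 to 16378449 on X, 53.8 kb, the 26th longest of 115171. It was picked because it holds a window without candidates, so it had to be long and nothing is read from its rank. It was 50.4 kb in replicate 1, 26.9 kb in replicate 2 and 24.1 kb in the other ranked list of both replicates, so its length depended on the list. The longest form holds the TSSs of 9 protein-coding genes. Beside Dsp1 these are CalpC (a calpain), CG9919, CG9921, sl (a phospholipase C gamma), U2af50 (a splicing factor), PIG-Q, nonA (an RNA-binding protein) and Fur2 (a furin protease). The part shared by the 4 ranked lists was 23.4 kb long, from 16328063 to 16351474, with 37.9% GC and 0 unknown bases. An annotated transposable element of the roo family fills 9.1 kb of that part (38.9%) just past the end of Dsp1. How reads from repeated sequence were treated upstream is not given in the files, and the part of the element in the empty interval was not tested. The span of Dsp1 ends before the element begins. The nearest conservative region was 50.9 kb from Dsp1, near TH1 (a subunit of the negative elongation factor), with a signal of 108.7.

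Ssrp (FBgn0010278) showed the opposite of Dsp1: many candidates, none of which passed the threshold. It lies on the minus strand of 2R from 23806361 to 23809004, 2644 bp with 1 transcript. Its window held 9 candidates in the main ranked list, 9 in the other list of both replicates, 6 in replicate 1 and 4 in replicate 2. That is 2.47 candidates per kb in the first list, a density above that of 99.2% of protein-coding genes, whose median was 1.1. The density was 1.65 in replicate 1 and 1.1 in replicate 2. HmgZ had 1.14 candidates per kb in the main ranked list, above 53% of genes, 0.615 in replicate 1 and 1.32 in replicate 2. HmgD had 0.492, above 20.8% of genes, then 0.43 and 0.615. Ssrp was thus the densest of the 4 genes in the main ranked list and in replicate 1, but in replicate 2 HmgZ was denser.

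The candidates of Ssrp were weaker than the strong one of HmgZ and HmgD in each list. The strongest candidate of Ssrp had a signal of 29.6 in the list of both replicates, 13.8 in replicate 1 and 13.7 in replicate 2. In the list of both replicates, the strongest candidate of a gene had a median signal of 33.3 over the 11823 protein-coding genes that had one, with quartiles of 25.6 and 43.9. Ssrp was therefore near the middle, above 37.5% of these genes, while HmgZ and HmgD were above 99.8% through the candidate they share. The signal of that candidate was known when the members were picked, so nothing is read from its place. No candidate of Ssrp came near the threshold: the highest −log10 IDR was 0.268 with both replicates, 0.0585 in replicate 1 and 0.102 in replicate 2. Some of the 9 candidates overlapped each other, so they are not all separate sites. Of the 9, 7 had their summit in an exon of Ssrp. The other 2 were upstream, marked by a minus sign, with 1 summit at −63 bp from the TSS and a signal of 8.40, and 1 at −973 bp and a signal of 22.4. The nearest conservative region was 41.4 kb away near eIF6, a translation factor, with a signal of 322.

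**Figure D2:**
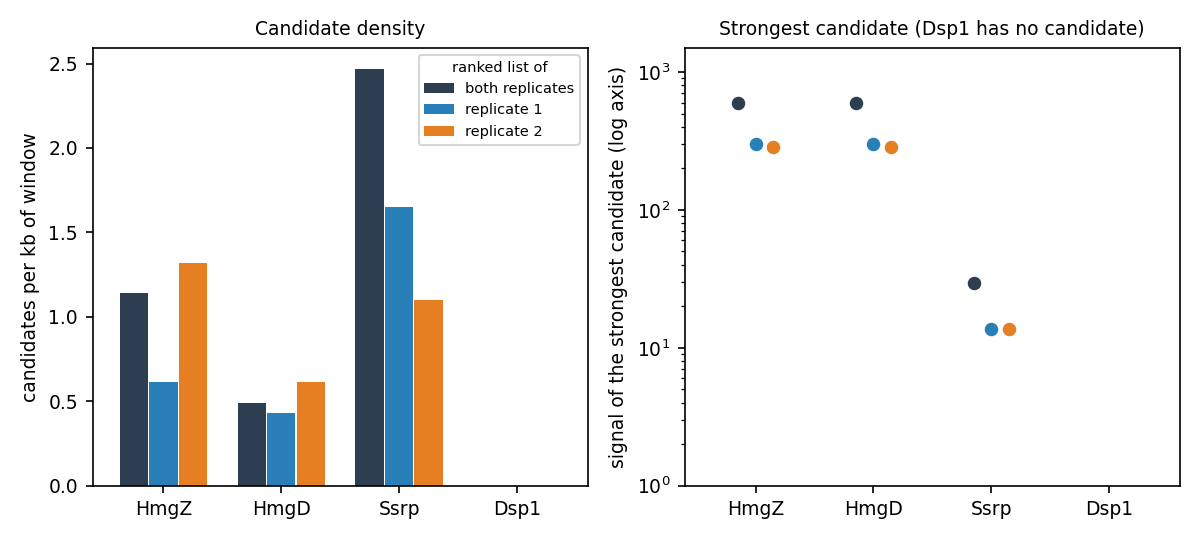
Candidates per kb of window (left, bars) and signal of the strongest candidate (right, points on a log axis) for HmgZ, HmgD, Ssrp and Dsp1, in the ranked lists of both replicates, replicate 1 and replicate 2. Ssrp has the densest candidates with both replicates (2.47 per kb) and in replicate 1 (1.65), HmgZ has them in replicate 2 (1.32), the strongest candidate of Ssrp with both replicates is 29.6, HmgZ and HmgD share 1 strong candidate at 601, and Dsp1 has none.

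**Figure D3:**
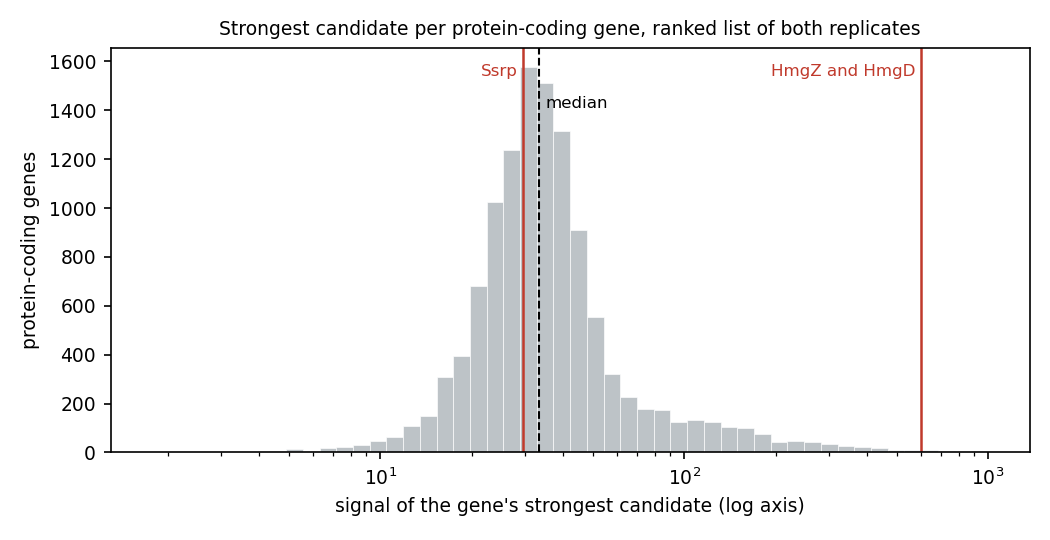
Number of protein-coding genes (vertical axis) by the signal of their strongest candidate in the ranked list of both replicates (horizontal log axis). The red lines mark Ssrp at 29.6, beside the median of 33.3, and HmgZ with HmgD at 601, in the far right tail. HmgZ and HmgD share the candidate at 601, which was known when the members were picked.

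The genes around the members held no binding region. Within 10 kb of the 4 genes lie 24 other protein-coding genes, of which 0 had a summit in the conservative list and 0 in either replicate's own list. Of all protein-coding genes, 11.2% had one in the conservative list, 8.21% in replicate 1's and 7.8% in replicate 2's. Some of the neighbours overlap each other and share candidates, so nothing is read from this count. Their candidates were counted in the main ranked list. On the HmgZ side, CngB, for a cyclic nucleotide-gated channel subunit, lies 335 bp away and had 9 candidates, the strongest at 26.02. Beyond it, CG42496 and Ppcdc had 2 candidates each, Tim10, CG42497, BaraC and CG10307 had 1 each, and Tbp, for the TATA-binding protein, had 4. The strongest among them reached 43.4. No gene on that side held a region that passed. On the other side CG30403, which lies within HmgD, had none, nor had Tango11, CG30398 or LBR.

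Around Dsp1, CG9921 begins 11 bp away on the other strand and, like CG9919, CalpC and sl, had no candidate. The exception was CG32579, with 3 candidates and a strongest signal of 23.8. Around Ssrp each of the 7 neighbours had candidates. CG5543, which starts 231 bp away, had 5 with a strongest signal of 22.4, and CG13561 had 7. The windows of CG5543 and CG13561 overlap that of Ssrp. Some of their candidates, with the one at 22.4, are therefore also counted for Ssrp. CG5539 had 6, CG30177 had 2, Nxt1 (an mRNA export factor) had 4 and pippin had 14. The long gene sona had 73, with a strongest signal of 42.8. In the main ranked list each neighbour of Ssrp thus had candidates. There 4 of the 5 neighbours of Dsp1 had none, beside 15.4% of all protein-coding genes. The interval around Dsp1 was shorter in each of the other ranked lists, where the neighbours were not counted.

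Related genes were described from 4 lists drawn up for this comparison. Of 16 other genes for HMG-box proteins, 4 had a summit in the conservative list (25%). That stands beside 11.2% of all protein-coding genes and 23.1% of those with a span of 5 kb or more. In replicate 1 there were 3 and in replicate 2 there were 3, beside 8.21% and 7.8% of all protein-coding genes. Sox14, a Sox factor known as a target of ecdysone, had a signal of 391 at −259 bp from a TSS. The stronger of the 2 regions of bbx had a signal of 187.3. Both genes were also in each replicate's own list. The repressor gene cic, which receptor tyrosine kinase signalling relieves, had 99.8 at the stronger of its 2 regions, in an intron −7148 bp from a TSS. This gene was in replicate 2's list but not in that of replicate 1. Sox100B had 56.8 and was in neither replicate's list. A further gene, polybromo, was in replicate 1's list and in the list not marked conservative. The remaining 11 had no summit in any of these lists. They are SoxN, D, Sox15, Sox21a, Sox21b, Sox102F, pan, Bap111, TFAM, tHMG1 and tHMG2, and the strongest candidate among those that had one reached 48.4. None of the other HMG-box genes came up to the signal of the HmgZ and HmgD region. That strong signal was known when the members were picked, so nothing is read from this.

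Genes that work with Ssrp or Dsp1, and remodelling genes, were counted next, and no difference between the gene lists was tested. In the conservative list, 11.2% of all protein-coding genes and 23.1% of those with a span of 5 kb or more had a summit. In replicate 1's and replicate 2's own lists, 8.21% and 7.8% of all protein-coding genes had a summit. In the conservative list and both replicates' own lists alike, 857 of 13968 genes had one. Of 13 histone chaperone genes, 0 had one in the conservative list, 1 in replicate 1 and 0 in replicate 2. The 1 gene was dre4, for the other subunit of FACT, which was also in the list not marked conservative and whose strongest candidate had a signal of 61.3. Of 18 nucleosome remodelling genes, 5 had a summit (27.8%). They were osa at a signal of 413.2 and brm at 318.8, subunits of the BRM complex, kis at 194.8, Ino80 at 137.8 and Chd1 at 107.9. Where a gene held 2 regions, as osa and gro did, the signal of the stronger is given. Each replicate gave 5 as well, with Mi-2 in place of Chd1 in replicate 2, and 4 were in all 3 lists. Of the 8 genes of the Dorsal pathway, 3 had a summit (37.5%): gro, for the co-repressor Groucho, at 230.5, Dif, for an NF-κB factor, at 120, and pll, for the kinase Pelle, at 103.1. Replicate 1 held Dif and gro and replicate 2 held all 3. Dorsal's own gene dl had a strongest candidate of 27.9.

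Gene length differed between the lists. The median span was 10.7 kb for the Dorsal pathway list, 5.83 kb for the remodelling list, 5.83 kb for the other HMG-box genes and 3.8 kb for the chaperones, beside 2.16 kb for all protein-coding genes. The share that length has in the counts was not tested. Median strongest candidates were 53.1, 38.9, 42.8 and 30 in that order, beside 33.3 for all genes. When no upstream sequence was counted, the other HMG-box genes numbered 2 in place of 4 and the remodelling genes 2 in place of 5. The Dorsal pathway genes numbered 2 in place of 3. The share of all protein-coding genes fell as well, to 5.8% from 11.2%.

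**Figure D4:**
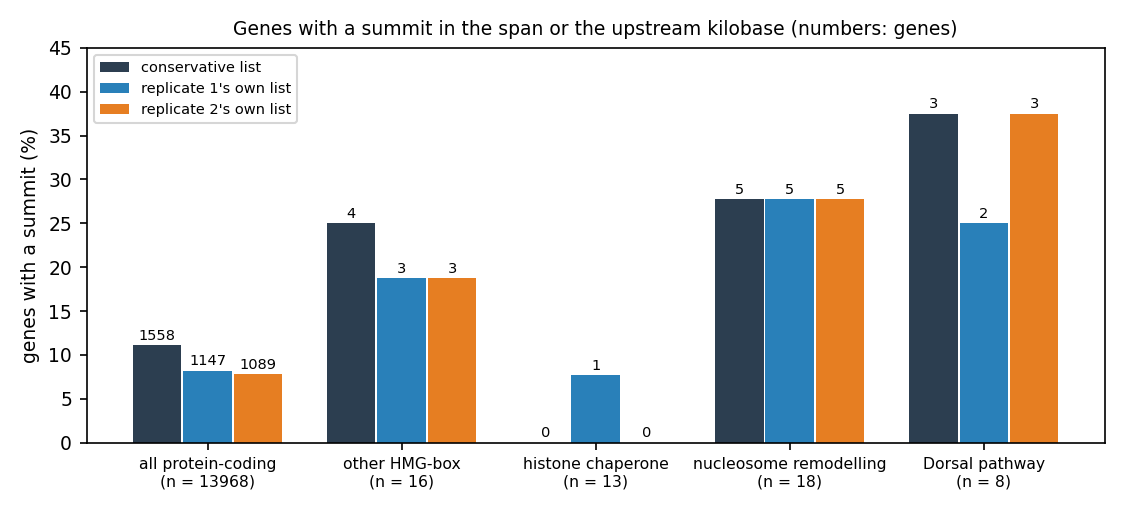
Percent of genes with a summit in the span or the upstream kilobase (vertical axis) in the conservative list and each replicate's own list, for all protein-coding genes and the 4 lists of related genes; numbers over the bars are genes. The remodelling list has 5 of 18 in each list, while the chaperones have 0, 1 and 0 of 13.

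The window of 101 bp at the strong summit of HmgZ and HmgD held no E-box. It had 0 matches on either strand to CANNTG, which 33.2% of the 1739 conservative windows and 43.3% of the 139701 candidate windows of the same length contain. The weak window also had 0. Neither window matched the E-box forms CATATG (3.91% of conservative windows), CAGCTG (2.99%) and CACGTG (0.518%), which are themselves part of CANNTG. Neither matched GAGAG, the core of the GAGA factor site (8.8%), TATCGATA, the DNA replication-related element (0.748%), or GGTCACACT, a core promoter motif (0.288%). A missing match says only that these letters are not in these windows. The windows differed in base content: 36.6% GC at the strong summit and 49.5% at the weak one, beside medians of 31.7% for conservative and 46.5% for candidate windows. The strong window was richer in GC than 67.1% of conservative windows and 15.3% of candidate windows.

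Other regions of the conservative list had nearly the same pair of replicate signals as the strong HmgZ and HmgD region. Likeness was the distance between the log2 signals of replicate 1 and replicate 2, over 1769 other regions before merging. The nearest was in an exon of Chro, for the chromatin and spindle protein Chromator, with signals of 306.9 and 293.3. Next came an intron of CG32772 (293.5 and 263.4) and a site at −99 bp from the TSS of CenG1A (318 and 310.1). Then came introns near the start sites of Adf1 (291.2 and 257.4), for a transcription factor, and Fkbp14 (268 and 282.2). Over the 5, the distances ran from 0.041 to 0.171. Of these 5 windows, 1 held an E-box, and their GC content ran from 24.8% to 41.6%.

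The summit windows of the CG32772 and CenG1A regions are shown because they match the signal of the HmgZ and HmgD region and lie outside coding sequence and UTRs. Both are from the Release 6 genome (dm6), plus strand, at chrX:4910305-4910405 and chr2L:13835415-13835515. Capitals mark the E-box CACTTG, which is in the CenG1A window and has no counterpart in the other.
CG32772: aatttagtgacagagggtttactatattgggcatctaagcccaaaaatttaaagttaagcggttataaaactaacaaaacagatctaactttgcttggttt
CenG1A: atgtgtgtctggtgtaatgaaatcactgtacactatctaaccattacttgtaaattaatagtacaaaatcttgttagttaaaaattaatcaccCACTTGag
Both windows are rich in A and T, at 31.7% and 29.7% GC.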

How the data were processed

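The authors deposited 8 peak lists, on build dm6 according to the labels: a ranked list of candidates and a thresholded list, for each replicate and, in 2 forms, for both. The deposited signal value per peak is the authors' own. What normalization, aligner and peak caller were used is not given in the sources used here. The authors also deposited the −log10 of the global IDR in the ranked lists, with the signal score of each of 2 input sets. Depth is unknown, so no interval was computed.

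Only chromosomes X, Y, 2L, 2R, 3L, 3R and 4 were used. Peaks overlapping by at least 1 bp were merged under the summit of highest signal. In the main ranked list, 72% of rows of the first input set and 72.5% of the second carried coordinates of replicate 1's and replicate 2's own candidates, so it was read as the comparison of the replicates. The gene models were those of BDGP6.54 in Ensembl release 115, and 99.8% of 30618 start codons read ATG in the Release 6 genome. Coordinates are 1-based.

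The members, gene lists and settings were chosen with earlier results of these data known, and no test was run. The text names the 4 members, list genes with a summit, protein-coding genes within 10 kb and the 5 regions nearest in replicate signals. Other genes were named after their values were seen. Summit counting was checked on made-up data. Python 3.11.15, numpy 2.4.6, pandas 2.3.3 and matplotlib 3.10.9 were used. Alternatives were each replicate's own list, the list not marked conservative, the stronger 50% of regions, other upstream lengths, any overlap, no merging, 5′ ends of spans and an IDR limit.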

Additional observations from a re-analysis of the deposited data

How the results depend on the processing

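Members with a summit were HmgZ and HmgD under each alternative except when HmgD-RD was left out, a setting chosen after seeing the data, which gave 1 member and moved the HmgD distance from 1930 to −9968 bp. Measured from the 5′ end of the span, the HmgZ distance turned from −558 to 4473 bp. Across replicates left out in turn, the HmgZ distance ran from −559 to −552 bp, the HmgD distance from 1924 to 1931 bp, the rank from 15 to 17, the chaperone count from 0 to 1 and the candidates over the members from 13 to 19, beside 22 with both. Candidates with a −log10 IDR of at least 2 numbered 2. The share of protein-coding genes was 6.4% with the stronger 50% of regions and 5.79% with no upstream sequence, which also left 2 remodelling and 2 other HMG-box genes. Chaperones numbered 1 in the list not marked conservative (dre4) and with 2000 bp upstream (yem). The interval at Dsp1 was 26.9 to 50.4 kb in single replicates and 24.1 kb in the other ranked list, settings added after seeing the data. The other 63 recomputed values stayed within 1.5 times the main count or within the spread between replicates. No paired analysis was possible because the series has 1 group. The cause of these shifts was not tested beyond what each setting leaves out. With 2 replicates the spread is poorly known, and with no depth in the lists an absent candidate does not show absent binding.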
